A study of Mus musculus with 32 samples.

Results

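Usp2, Wee1, Coq10b, Lonrf3, Tspan4, Fmo2, Dtx4 and Tcap are 8 genes taken here as outputs of the molecular clock in muscle, genes whose products do other work than keeping time. They were picked by name, and the rows of the deposited table whose Entrez identifier maps to these symbols were taken, which gave 1 probe set for each of the 8 genes out of 23279 genes measured. RNA of hindlimb muscle had been hybridised to GeneChip Mouse Gene 2.0 ST arrays, which read whole transcripts with short probes. The mice were C57BL/6, either young (8 weeks) or aged (80 weeks), with no genetic change or drug named in the labels. All had lived in 12 h of light and 12 h of darkness for 2 weeks with free access to food and water. The times of sampling are given as zeitgeber time (ZT), counted in hours from lights on, and were ZT 0, 3, 6, 9, 12, 15, 18 and 21; there were 16 samplings in 2 days. Each of the 32 arrays held pooled RNA of 3 mice, 2 arrays for each of the 16 groups of 1 age and 1 ZT. The arrays of a group are numbered as repeats 1 and 2, and the labels do not say that the number marks a day. P-values therefore measure the spread from pool to pool, and mice could not be compared one by one.

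The clock is a loop of transcription factors. BMAL1 and CLOCK bind E-boxes (CACGTG) and switch on the Per, Cry and Rev-erb genes, whose proteins then hold them back. The same loop drives output genes in each tissue, through E-boxes directly, through D-boxes bound by the PAR bZIP factors DBP, TEF and HLF, and through elements shared by REV-ERB and ROR. In muscle such outputs reach protein turnover, energy metabolism and the contractile apparatus.

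Promoter sequence was at hand for 5 of the 8 genes (Usp2, Coq10b, Lonrf3, Tspan4 and Fmo2), in 7 windows of 250 bases before to 50 bases after a listed start (RefSeq, GRCm38.p6). The stretches of Coq10b and Lonrf3 are shown. They hold the perfect E-box close to the start, and both genes were called rhythmic in each age. That of Tspan4, which also held one but was called only with ages together, is not shown. Capitals mark the motif, and each stretch ends at the base before the start.
Coq10b, chr1:55052588-55052769, plus strand: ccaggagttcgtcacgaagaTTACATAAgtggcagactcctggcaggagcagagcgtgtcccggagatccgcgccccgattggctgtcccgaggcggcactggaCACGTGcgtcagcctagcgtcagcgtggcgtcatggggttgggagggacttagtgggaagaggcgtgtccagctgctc
Lonrf3, chrX:36328344-36328408, plus strand: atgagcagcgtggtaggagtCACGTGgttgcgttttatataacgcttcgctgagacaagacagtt
In Coq10b the E-box began 78 bases before the start and a D-box (TTACATAA, the reverse complement of TTATGTAA) began 162 bases before it. In Lonrf3 the E-box began 45 bases before the start. Tspan4 held an E-box 51 bases before 1 of its starts, and Fmo2 held the variant E-box CACGTT 23 bases before its start. Searched on both strands, CACGTG was in 3 of the 7 windows and in 7.15% of 32851 promoter windows of this length. The D-box (TTATGTAA or TTACGTAA) was in 1 of the 7 and in 1.06% of all windows, the variant E-box in 1 of the 7 and in 4.68%, and the core of the ROR element (TAGGTCA or TGGGTCA) in 0 of the 7 and in 6.45%. Usp2, whose transcript also cycled, held none of these motifs. A match describes letters in a window and is not a measured binding site.

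The arrays read as muscle. The mean over 7 skeletal muscle fibre markers (Ckm, Acta1, Mb, Des, Myh4, Myh1 and Myh2) was 12.6 in both ages on the log2 scale of the table, near the top of the values (1.70 to 13.7). On 6 arrays, 5 of young and 1 of aged muscle, the mean over 12 hepatocyte genes was 7.35 to 9.84, against 5.44 to 6.57 on the other 26. They were the young arrays of ZT 0 repeat 1, ZT 3 repeat 1, both repeats of ZT 6 and ZT 18 repeat 2, and the aged array of ZT 6 repeat 1. In young muscle the lowest value of 7 of the 8 genes (all but Dtx4) was on 1 of these 5 arrays, and in aged muscle that of 0 of the 8 was on the 1 such array. Results that rest on them are given with and without the 6 arrays.

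The first question is which of the 8 genes follow the time of day. Rhythm was tested as a 24 h cosine curve in each age with limma, and a gene was called rhythmic at a Benjamini-Hochberg adjusted p under 0.05 over all genes. The amplitude is the height of the fitted peak over the mean in log2 units, with its standard error (SE). Both ages were fitted together, so every SE rests on a spread per gene estimated from all 32 arrays. The amplitude SE of a gene is therefore the same in young and aged muscle. The n beside an SE counts the arrays under the curve, 16 of an age or 32 of both. In young muscle 6 of the 8 genes were rhythmic (Usp2, Wee1, Coq10b, Lonrf3, Fmo2 and Tcap), where 1.92% of all genes were. The same 6 were called in aged muscle, where 0.696% of all genes were. With a curve common to both ages Tspan4 was called as well, so that 7 of 8 were rhythmic beside 3.6% of all genes, and Dtx4 was not. As the genes were proposed with results of these arrays known, these shares describe the 8 genes and are no independent evidence that clock outputs cycle. The median amplitude with ages together was 0.49 over the 8 genes, 0.20 over the 837 genes called rhythmic and 0.06 over all genes. Repeat 1 or repeat 2 alone, with 16 arrays each, left 4 and 3 of the 8 genes called in young muscle, among 77 and 35 of all 23279 genes. They left 2 and 1 in aged muscle, among 20 and 8 of all genes, and with ages together 5 and 6, among 224 and 150. Without the 6 arrays rich in liver transcripts the calls were 4 in young muscle (of 255 over all genes), 5 in aged muscle (of 108) and 7 for the common curve (of 585).

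**Figure D1:**
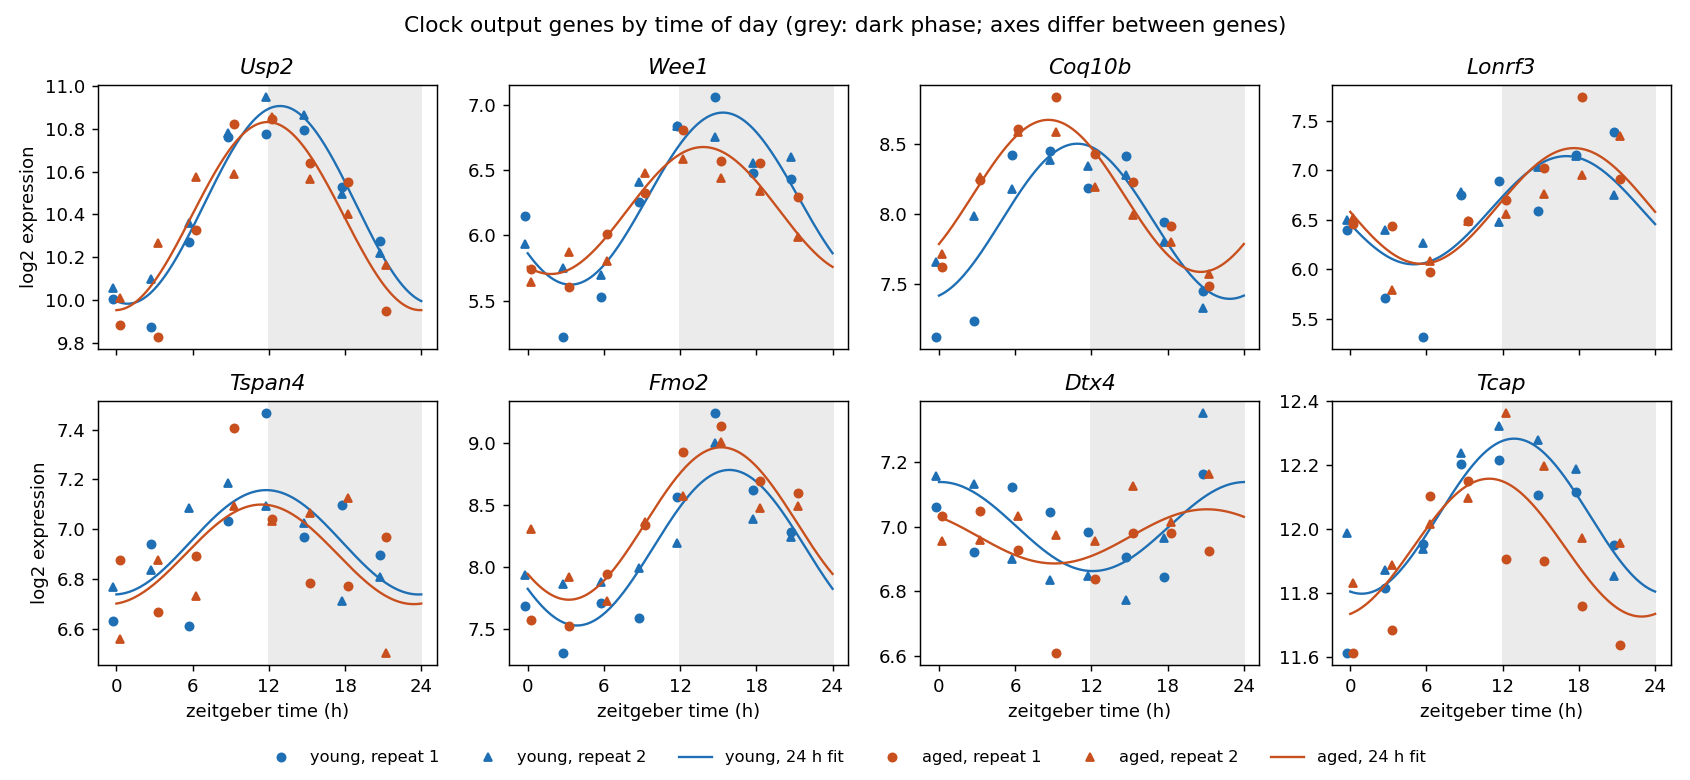
Log2 expression (vertical, a separate axis for each gene) of the 8 genes against zeitgeber time in hours (horizontal), for young (blue) and aged (orange) muscle; circles and triangles are repeats 1 and 2, curves are the 24 h fits, and grey marks darkness. Usp2, Wee1, Coq10b and Fmo2 trace a clear wave in both ages, while the points of Dtx4 stay between 6.61 and 7.35.

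Usp2 and Lonrf3 belong to protein turnover, which ubiquitin steers for clock proteins as for others. Usp2 encodes a protease that removes ubiquitin from proteins, BMAL1, PER1 and CRY1 among its described substrates. In young muscle its repeats 1 and 2 read 10.01 and 10.06 at ZT 0, 9.87 and 10.10 at ZT 3, 10.27 and 10.36 at ZT 6, 10.76 and 10.78 at ZT 9, 10.78 and 10.95 at ZT 12, 10.80 and 10.87 at ZT 15, 10.53 and 10.49 at ZT 18 and 10.28 and 10.22 at ZT 21 (log2). In aged muscle they read 9.88 and 10.01 at ZT 0, 9.83 and 10.26 at ZT 3, 10.33 and 10.58 at ZT 6, 10.82 and 10.59 at ZT 9, 10.85 and 10.86 at ZT 12, 10.64 and 10.57 at ZT 15, 10.55 and 10.40 at ZT 18 and 9.95 and 10.16 at ZT 21. In both ages the arrays of ZT 9, 12 and 15 all lay above those of ZT 0 and 3, with no overlap. The fitted wave varied 1.90-fold from trough to peak in young muscle (amplitude 0.46 ± 0.043, SE, n = 16; adjusted p = 8.53e-08) with its peak at ZT 12.9 ± 0.356. In aged muscle it varied 1.84-fold (0.44 ± 0.043; adjusted p = 5.59e-07) with its peak at ZT 11.9 ± 0.374. Usp2 followed the curve most closely of the 8 genes: the 24 h fits took up 90.8% of its variance within ages, and its repeats ran together over the 8 times of day (r = 0.963 in young and 0.875 in aged). By p-value Usp2 stood 7th of 23279 genes with ages together.

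Of 28 other ubiquitin-specific proteases 2 were rhythmic with ages together, beside 3.6% of all genes. These were Usp54 (amplitude 0.19, peak ZT 13.7, adjusted p = 0.00151) and Usp22 (amplitude 0.14, peak ZT 11.8, adjusted p = 0.00254). The median amplitude of the 28 was 0.04.

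Lonrf3 encodes a protein with a LON domain and a RING finger, a domain of many ubiquitin ligases. It was the latest of the rhythmic genes. In young muscle its repeats 1 and 2 read 6.40 and 6.50 at ZT 0, 5.71 and 6.39 at ZT 3, 5.32 and 6.26 at ZT 6, 6.75 and 6.78 at ZT 9, 6.90 and 6.47 at ZT 12, 6.59 and 7.04 at ZT 15, 7.15 and 7.15 at ZT 18 and 7.39 and 6.75 at ZT 21. In aged muscle they read 6.45 and 6.51 at ZT 0, 6.44 and 5.79 at ZT 3, 5.98 and 6.08 at ZT 6, 6.49 and 6.48 at ZT 9, 6.70 and 6.55 at ZT 12, 7.03 and 6.76 at ZT 15, 7.74 and 6.95 at ZT 18 and 6.92 and 7.35 at ZT 21. The highest pair of arrays was that of ZT 18 in both ages and the lowest that of ZT 6, but the repeats were far apart at some times, by 0.95 at ZT 6 in young and by 0.79 at ZT 18 in aged muscle. The fit gave a 2.13-fold wave in young muscle (amplitude 0.55 ± 0.110, SE, n = 16; adjusted p = 0.0109; peak ZT 17.0 ± 0.764). In aged muscle it was 2.25-fold (0.58 ± 0.110; adjusted p = 0.0130; peak ZT 17.6 ± 0.715). The young call was lost without the 6 arrays rich in liver transcripts, where the young amplitude was 0.27 (adjusted p = 0.550), beside 1.1% of all genes called, whereas the aged amplitude was 0.57 (adjusted p = 0.0121). Without the aged ZT 18 repeat 1 array the aged call was lost as well (amplitude 0.50, adjusted p = 0.0683). Both calls were lost when ZT entered as a factor (adjusted p = 0.192 in young and 0.482 in aged), the young call with each age fitted alone (adjusted p = 0.0745) and the aged call with the fibre mean as a covariate (adjusted p = 0.0967).

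Of 5 other genes with a LON domain 1 was rhythmic with ages together. This was Lonrf1, the close relative of Lonrf3, at an amplitude of 0.29 and a peak at ZT 20.7 (adjusted p = 0.00109). Lonrf2 had an amplitude of 0.15 and did not pass (adjusted p = 0.328).

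Wee1 encodes the kinase that puts an inhibitory phosphate on CDK1 and so delays entry into mitosis, and it is a known E-box target of the clock in liver. In young muscle its repeats 1 and 2 read 6.15 and 5.93 at ZT 0, 5.22 and 5.75 at ZT 3, 5.52 and 5.70 at ZT 6, 6.26 and 6.41 at ZT 9, 6.84 and 6.84 at ZT 12, 7.06 and 6.76 at ZT 15, 6.48 and 6.55 at ZT 18 and 6.44 and 6.60 at ZT 21. In aged muscle they read 5.74 and 5.64 at ZT 0, 5.60 and 5.87 at ZT 3, 6.01 and 5.81 at ZT 6, 6.32 and 6.48 at ZT 9, 6.81 and 6.59 at ZT 12, 6.57 and 6.44 at ZT 15, 6.55 and 6.34 at ZT 18 and 6.29 and 5.99 at ZT 21. In young muscle the arrays of ZT 12 and 15 all lay above the arrays of every other ZT. In aged muscle both arrays of ZT 12 lay above those of every other ZT, and the arrays of ZT 15 and 18 overlapped. The wave was 2.50-fold in young muscle (amplitude 0.66 ± 0.067, SE, n = 16; adjusted p = 4.96e-07; peak ZT 15.4 ± 0.387), the largest of the 8 genes there. In aged muscle it was 1.96-fold (0.49 ± 0.067; adjusted p = 0.000273; peak ZT 13.8 ± 0.524). The amplitude difference of -0.17 ± 0.095 was less than 2 SE. Without the 6 arrays rich in liver transcripts the amplitude of Wee1 was 0.55 in young and 0.49 in aged muscle. Fmo2 then had a larger young amplitude than Wee1 (0.69).

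Of 14 measured genes of entry into mitosis 1 was rhythmic with ages together, beside 3.6% of all genes. This was Aurka, which encodes a spindle kinase. It peaked at ZT 1.29 with an amplitude of 0.19 (adjusted p = 0.00721). None of the 14 was called in young or in aged muscle alone, and the list's median amplitude was 0.07.

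**Figure D2:**
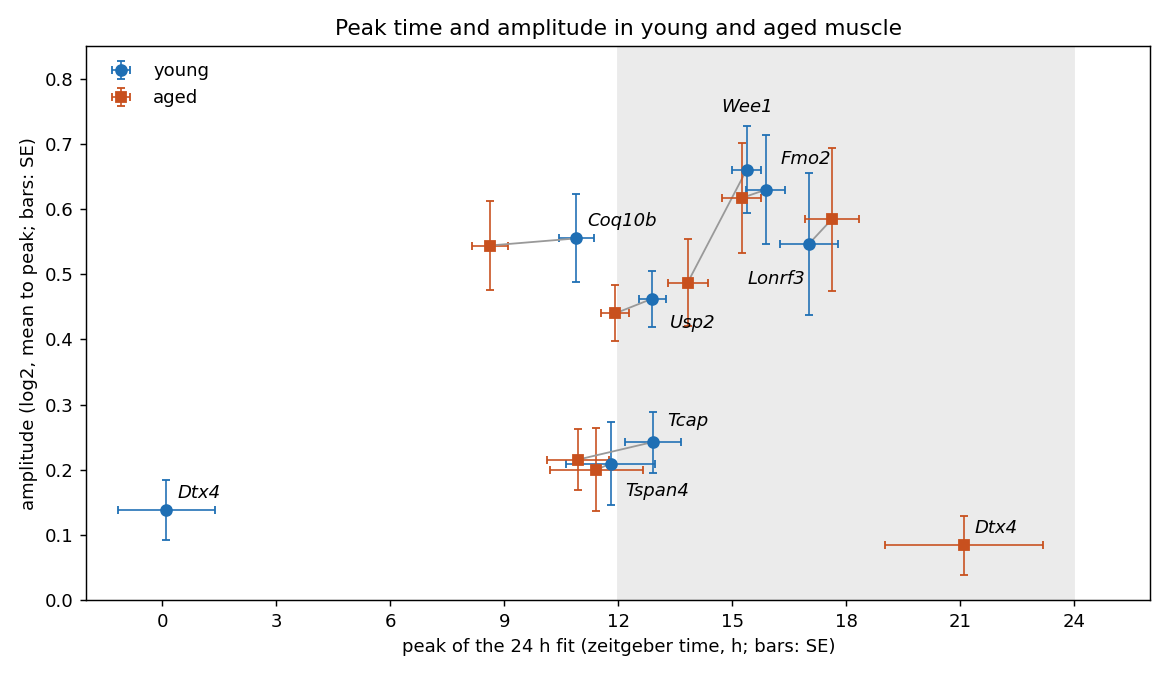
Amplitude of the 24 h fit in log2 units (vertical) against its peak in zeitgeber time in hours (horizontal) for young (blue circles) and aged (orange squares) muscle; bars are SE, n = 16 arrays, and lines join the ages of a gene (none is drawn for Dtx4). Coq10b peaks before darkness, Usp2 near its onset, and Wee1, Fmo2 and Lonrf3 within it, with Coq10b of aged muscle at ZT 8.62 and of young muscle at ZT 10.9.

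Coq10b and Fmo2 belong to metabolism. Coq10b encodes a mitochondrial protein that binds coenzyme Q, the lipid that carries electrons along the respiratory chain. In young muscle its repeats 1 and 2 read 7.12 and 7.66 at ZT 0, 7.23 and 7.98 at ZT 3, 8.42 and 8.18 at ZT 6, 8.45 and 8.38 at ZT 9, 8.19 and 8.34 at ZT 12, 8.42 and 8.28 at ZT 15, 7.94 and 7.80 at ZT 18 and 7.45 and 7.33 at ZT 21. In aged muscle they read 7.62 and 7.72 at ZT 0, 8.25 and 8.26 at ZT 3, 8.61 and 8.59 at ZT 6, 8.84 and 8.58 at ZT 9, 8.43 and 8.20 at ZT 12, 8.23 and 7.99 at ZT 15, 7.91 and 7.80 at ZT 18 and 7.48 and 7.57 at ZT 21. Its highest pair was that of ZT 9 in both ages, within the light phase, and in aged muscle the arrays of ZT 3, 6 and 9 all lay above those of ZT 15, 18, 21 and 0. The wave was 2.16-fold in young muscle (amplitude 0.55 ± 0.068, SE, n = 16; adjusted p = 1.37e-05; peak ZT 10.9 ± 0.465). In aged muscle it was 2.13-fold (0.54 ± 0.068; adjusted p = 5.08e-05; peak ZT 8.62 ± 0.474). The young repeats of ZT 3 were 0.75 apart.

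None of 11 measured coenzyme Q genes was rhythmic in either age or with ages together. Coq10a, the other COQ10 gene, had an amplitude of 0.09 (adjusted p = 0.391). It was lower in aged muscle by 0.38 log2 units (difference -0.38 ± 0.052), one of 3 genes of the list that fell with age, while 0 rose. Over all genes 7.51% were lower and 9.67% higher in aged muscle. Of the 2 COQ10 genes, Coq10b was thus called by the time of day and Coq10a by age. Coq10b was higher in aged muscle by 0.18 without passing (adjusted p = 0.0949), and the 2 genes were not tested against each other.

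Fmo2 encodes a flavin-containing monooxygenase, which uses NADPH to oxidise compounds with nitrogen or sulphur. In young muscle its repeats 1 and 2 read 7.68 and 7.94 at ZT 0, 7.30 and 7.86 at ZT 3, 7.71 and 7.88 at ZT 6, 7.58 and 7.99 at ZT 9, 8.56 and 8.20 at ZT 12, 9.24 and 9.01 at ZT 15, 8.63 and 8.39 at ZT 18 and 8.28 and 8.24 at ZT 21. In aged muscle they read 7.57 and 8.31 at ZT 0, 7.52 and 7.92 at ZT 3, 7.94 and 7.73 at ZT 6, 8.34 and 8.36 at ZT 9, 8.93 and 8.57 at ZT 12, 9.14 and 9.01 at ZT 15, 8.70 and 8.47 at ZT 18 and 8.60 and 8.49 at ZT 21. The arrays of ZT 15 were the highest of both ages, all 4 at 9.01 or more, and did not overlap with those of any other ZT. The wave was 2.39-fold in young muscle (amplitude 0.63 ± 0.084, SE, n = 16; adjusted p = 5.71e-05; peak ZT 15.9 ± 0.508). In aged muscle it was 2.35-fold (0.62 ± 0.084; adjusted p = 0.000231; peak ZT 15.2). With ages together its amplitude of 0.62 ranked 28th of 23279 genes.

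Within groups the level of Fmo2 went with that of endothelial markers. Its deviations from the group means followed those of the mean of 6 endothelial genes (Pecam1, Cdh5, Kdr, Tek, Emcn and Flt1) with r = 0.82 over 32 arrays, a description in which the 2 arrays of a group mirror each other. In bulk muscle fewer cells of a type and less RNA per cell cannot be told apart. Of the 6 markers 4 were rhythmic with ages together, with peaks spread over the day (Flt1 at ZT 16.5, Emcn at 20.7, Tek at 23.9 and Kdr at 1.34), and 5 were lower in aged muscle. The mean of the list was 8.83 in young arrays (8.51 to 9.07) and 8.64 in aged arrays (8.43 to 8.81), and each marker averaged 7.85 or more. With the endothelial mean as a covariate, an alternative chosen after the data had been seen, the amplitude of Fmo2 was 0.78 in young and 0.63 in aged muscle, and 0.69 for the common curve.

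Of the 3 other measured flavin monooxygenases 1 was rhythmic, Fmo1. It varied 1.81-fold with ages together and peaked at ZT 16.5 (adjusted p = 1.53e-05), and was called in young and in aged muscle. Fmo4 and Fmo5 had amplitudes of 0.04 each and did not pass.

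**Figure D3:**
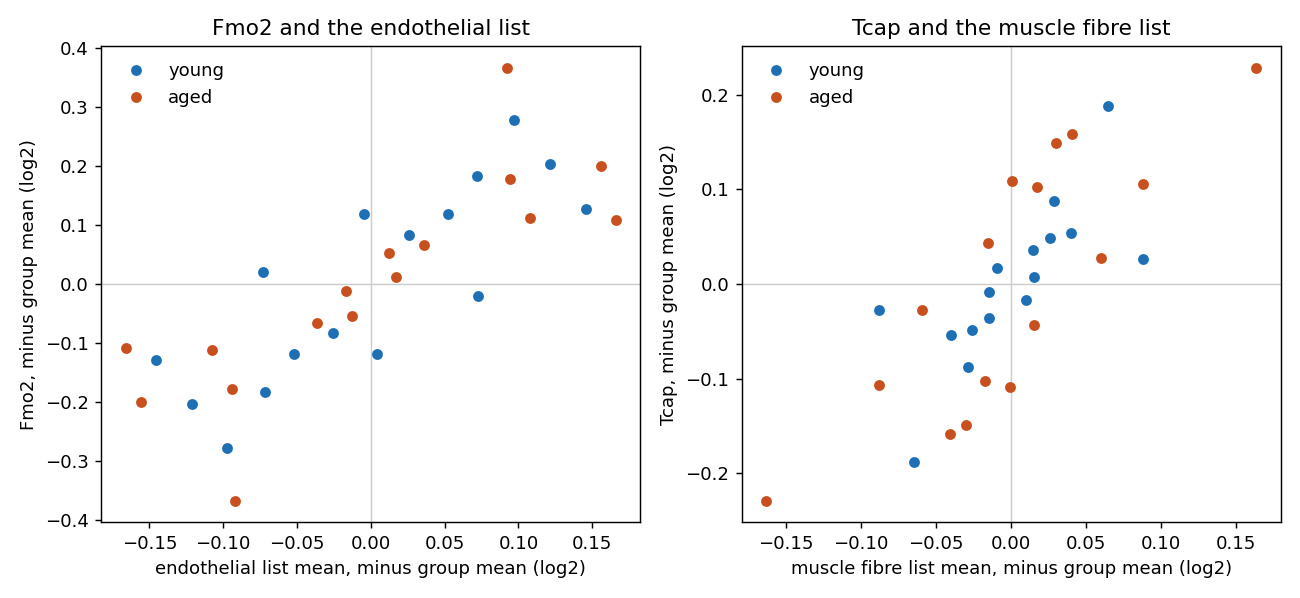
Deviation of Fmo2 (left) and Tcap (right) from the mean of their group, in log2 units (vertical), against the same deviation of the endothelial list mean and of the muscle fibre list mean (horizontal); each point is 1 of 32 arrays, blue for young and orange for aged. Points of a group mirror each other, and both clouds slope upward (r = 0.82 for Fmo2 and r = 0.79 for Tcap).

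Tspan4 and Dtx4, of the membrane and of signalling, gave the weakest waves. Tspan4 encodes a tetraspanin, a class of membrane proteins that organise other proteins at the cell surface. Its values had a median of 6.95 in young muscle (6.61 to 7.47, n = 16) and of 6.88 in aged muscle (6.50 to 7.41, n = 16). The highest pairs were those of ZT 12 in young (7.47 and 7.09) and ZT 9 in aged muscle (7.41 and 7.09), and the lowest those of ZT 0 in both (6.63 and 6.77, 6.88 and 6.56). The repeats hardly ran together over the 8 times of day (r = 0.237 in young and 0.159 in aged). Neither age alone passed (amplitude 0.21 ± 0.064, adjusted p = 0.185 in young; 0.20 ± 0.064, adjusted p = 0.386 in aged). With ages together the amplitude was 0.20 ± 0.044 (SE, n = 32; adjusted p = 0.0115), 1.33-fold, with the peak at ZT 11.6. Apart from fits without a single array, that call was lost in 4 of 11 alternatives. It was lost when ZT entered as a factor instead of a curve (adjusted p = 0.208) and with the endothelial mean as a covariate (adjusted p = 0.0751). The fits with repeat 1 or repeat 2 alone lost it as well.

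Of 22 other measured tetraspanin genes 2 were rhythmic with ages together. Both peaked in the morning, Tspan9 at ZT 1.75 (amplitude 0.21, adjusted p = 8.34e-05) and Tspan15 at ZT 3.71 (amplitude 0.18, adjusted p = 0.00113). The median amplitude of the list was 0.06.

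Dtx4 encodes a ubiquitin ligase of the Deltex family, which acts on Notch signalling. Its values had a median of 6.97 in young muscle (6.77 to 7.35, n = 16) and of 6.98 in aged muscle (6.61 to 7.16, n = 16). It passed in no fit: its amplitude was 0.14 ± 0.046 in young (adjusted p = 0.249), 0.08 ± 0.046 in aged (adjusted p = 0.821) and 0.10 with ages together (adjusted p = 0.173). The fitted peak with ages together, ZT 23.0 ± 1.21, lay 5.66 h after that of Lonrf3, the nearest of the other 7 genes, and 11.4 h from that of Tspan4, the furthest. Its unadjusted p with ages together was 0.0127, so that these 32 arrays leave a weak wave undecided. None of 18 other Deltex and Notch pathway genes was rhythmic in any of the fits, Dtx1 (amplitude 0.04), Dtx2 (0.04) and Dtx3 (0.09) included.

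Tcap encodes telethonin, which caps the ends of titin at the Z-disc, the border of the contractile unit. In young muscle its repeats 1 and 2 read 11.61 and 11.99 at ZT 0, 11.82 and 11.87 at ZT 3, 11.95 and 11.94 at ZT 6, 12.20 and 12.24 at ZT 9, 12.22 and 12.32 at ZT 12, 12.11 and 12.28 at ZT 15, 12.12 and 12.19 at ZT 18 and 11.95 and 11.85 at ZT 21. In aged muscle they read 11.61 and 11.83 at ZT 0, 11.68 and 11.89 at ZT 3, 12.10 and 12.02 at ZT 6, 12.15 and 12.10 at ZT 9, 11.91 and 12.36 at ZT 12, 11.90 and 12.20 at ZT 15, 11.76 and 11.97 at ZT 18 and 11.64 and 11.96 at ZT 21. In young muscle the arrays of ZT 9 to 18 all lay above those of every other ZT. In aged muscle the repeats were further apart, by 0.46 at ZT 12, and the times of day overlapped. The wave was 1.40-fold in young muscle (amplitude 0.24 ± 0.047, SE, n = 16; adjusted p = 0.00748; peak ZT 12.9 ± 0.736). In aged muscle it was 1.35-fold (0.22 ± 0.047; peak ZT 10.9 ± 0.827) and passed narrowly (adjusted p = 0.0474), a call lost in 25 of the 32 fits that each left out 1 array (adjusted p from 0.0140 to 0.194). Without the 6 arrays rich in liver transcripts the adjusted p was 0.173 in young and 0.0975 in aged muscle, and 0.00255 for the common curve. With the repeat number as a block in the fit both ages passed more clearly (adjusted p = 0.00109 in young and 0.00945 in aged). When ZT entered as a factor neither age passed (adjusted p = 0.509 in young and 1.00 in aged).

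Within groups Tcap followed the muscle fibre markers (r = 0.79 over 32 arrays, as a description) and the fast fibre markers (r = 0.73). None of the 7 fibre markers was rhythmic, and their mean ran from 12.5 to 12.7 in young and from 12.4 to 12.7 in aged arrays. With the fibre mean as a covariate, also chosen after the data had been seen, the amplitude of Tcap was 0.25 in young (adjusted p = 0.000272), 0.23 in aged (adjusted p = 0.00262) and 0.24 with ages together. Of 19 other genes of the Z-disc and of titin's partners 1 was rhythmic with ages together, Pdlim7 (amplitude 0.16, peak ZT 20.3, adjusted p = 0.0274). The list's median amplitude was 0.04 against 0.22 for Tcap.

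**Figure D4:**
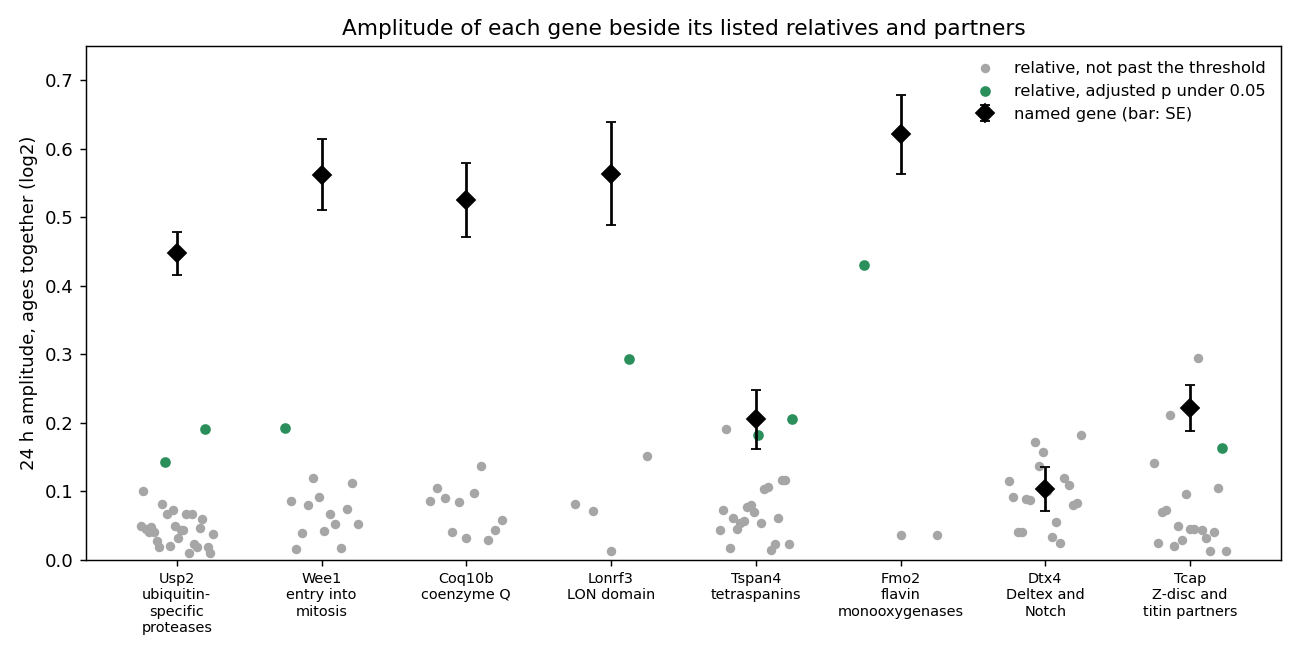
Amplitude of the 24 h fit with ages together in log2 units (vertical) for each of the 8 genes (black diamonds, bars SE, n = 32 arrays) beside the genes of its list (dots, green where the adjusted p is under 0.05). Usp2, Wee1, Coq10b, Lonrf3 and Fmo2 lie above all dots of their lists, while Tspan4, Dtx4 and Tcap lie within the range of theirs.

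The genes of the clock itself give the frame. The core clock had 14 measured genes, of which 13 cycled in each age, and of the 4 bZIP genes Dbp, Tef, Hlf and Nfil3 all 4 were with ages together. Of 13 other measured genes linked to the clock, 6 were. Arntl, which encodes BMAL1, peaked at ZT 23.2 with an amplitude of 1.06 with ages together, and Dbp at ZT 11.0 with an amplitude of 1.02. The output genes had smaller waves than these 2, from 0.10 for Dtx4 to 0.62 for Fmo2. Arntl and Dbp ranked 3rd and 4th of 23279 genes by amplitude, so they are extreme references. The median amplitude was 0.58 over the 14 core clock genes and 0.50 over the 4 bZIP genes, beside 0.49 over the 8 output genes.

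Ordered by peak with ages together, Coq10b came first at ZT 9.77, then Tspan4 at 11.6, Tcap at 12.0, Usp2 at 12.4, Wee1 at 14.7, Fmo2 at 15.6, Lonrf3 at 17.3 and Dtx4 at 23.0. Tspan4, Tcap and Usp2 could not be told apart: the gaps were 0.37 ± 1.00 h (SE) and 0.43 ± 0.639 h. Usp2 to Wee1 was a gap of 2.30 ± 0.444 h, 5.19 times its SE. Wee1 and Fmo2 were 0.84 ± 0.504 h apart, less than 2 SE, and Lonrf3 followed Fmo2 by 1.76 ± 0.623 h. Coq10b led Tspan4 by 1.84 ± 0.906 h. These SE treat the genes as independent, which genes read on the same arrays are not. No 12 h wave was called for any of the 8 genes in limma (adjusted p of 0.999 for each). The 12 h amplitudes were 0.01 to 0.20, the largest in Lonrf3, so a weaker second wave is not excluded.

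The genes whose profiles were most like each of the 8, by Pearson r over 32 arrays with the mean of each age taken out, mostly belonged to the clock for Usp2, Coq10b and Tcap. Usp2 was nearest to Per2 (r = 0.927), Per1 (0.919) and Dbp (0.892). Coq10b was nearest to Per3 (0.859), Nr1d2 (0.851) and Dbp (0.849). Tcap was nearest to Usp2 itself (0.818), Dbp (0.814) and Tef (0.794), so the sarcomere gene and the protease kept almost the same time. Wee1 was nearest to Nrip1 (0.869), Mid1ip1 (0.866) and Per2 (0.866). Fmo2 was nearest to Slc43a3 (0.924), Adgrf5 (0.922) and Tle4 (0.901), of which none is a clock gene. Lonrf3 was nearest to Glul (0.745), Arrdc3 (0.727) and Pik3r1 (0.721). The likeness was lowest for Tspan4 (Mir5125 0.718, Crybb1 0.711, Sgk1 0.704) and Dtx4 (Fgf6 0.638, Mettl18 0.637, Tm6sf1 0.630). Among the 8 genes the closest pairs were Usp2 with Tcap (r = 0.818) and Wee1 with Fmo2 (r = 0.818). Coq10b and Fmo2, early and late, had r = 0.11. The r of Dtx4 was below 0 with 6 of the other 7.

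The next question is whether the level differs between young and aged muscle at matched times of day. None of the 8 genes passed, with ZT as a factor in limma, beside 17.2% of all genes (9.67% higher and 7.51% lower in aged muscle). At an unadjusted p under 0.05 there were 2, Coq10b and Fmo2, both higher in aged muscle, among 6789 of 23279 genes. The 8 genes were thus not named more often than genes at large. The median difference over all genes was -0.0085, a value that the quantile normalisation of the deposited table holds near 0. For the other 6 genes the difference lay between -0.10 (Tcap) and 0.04 (Lonrf3).

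Fmo2 averaged 8.15 ± 0.522 in young and 8.35 ± 0.497 in aged muscle (SD over 16 arrays each, the daily wave included). The difference was 0.20 ± 0.077 (SE; 95% interval 0.04 to 0.35; adjusted p = 0.0795). The aged mean was higher at 7 of 8 times of day, and both aged arrays lay above both young arrays at ZT 9, 12 and 21. Here and below, 2 arrays against 2 often separate fully by chance, and the share over all genes was not counted. The call depended on settings. Fmo2 passed with array weights (adjusted p = 0.0337), with a filter on low values (adjusted p = 0.0441), without the young ZT 3 repeat 2 array (adjusted p = 0.0442) or the aged ZT 0 repeat 1 array (adjusted p = 0.0267). With the endothelial mean as a covariate the difference was 0.43 (adjusted p = 0.000565), where the endothelial markers themselves were lower in aged muscle. Without the 6 arrays rich in liver transcripts it was 0.18 (adjusted p = 0.256).

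Coq10b averaged 7.95 ± 0.462 in young and 8.13 ± 0.418 in aged muscle (SD, n = 16 each). The difference was 0.18 ± 0.074 (SE; 95% interval 0.03 to 0.33; adjusted p = 0.0949). It was uneven over the day, from 0.65 at ZT 3 to -0.24 at ZT 15. Both aged arrays lay above both young arrays at ZT 3, 6, 9 and 21 and below both at ZT 15. Without the aged ZT 15 repeat 2 array Coq10b passed (0.21, adjusted p = 0.0405). Without the 6 arrays rich in liver transcripts the difference was 0.06 (adjusted p = 0.588).

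The listed relatives of the 8 genes moved with age in both directions. Of the 28 other ubiquitin-specific proteases 9 were higher and 2 lower in the aged arrays, while of the 5 other LON domain genes 3 were higher and 0 lower, Lonrf1 among them (0.26 ± 0.073, SE; adjusted p = 0.0128). Of the 14 genes of entry into mitosis 1 was higher and 1 lower, and of the 22 other tetraspanins 2 were higher and 3 lower. Of the 18 Deltex and Notch genes 3 were higher and 2 lower, of the 19 genes of the Z-disc 2 were higher and 3 lower, and of the 3 flavin monooxygenases 0 were called. The share of calls was highest in the lists of Lonrf3 and Usp2, which are themselves not called.

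**Figure D5:**
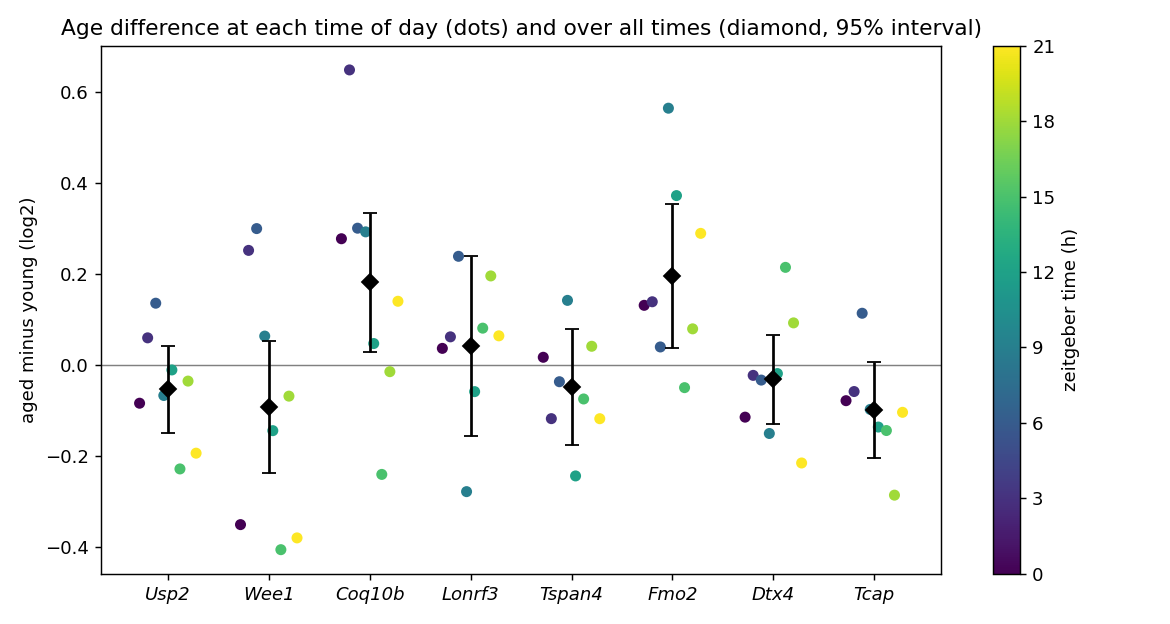
Aged minus young in log2 units (vertical) for the 8 genes (horizontal): dots are the differences of group means at each zeitgeber time, coloured by hour, and diamonds the difference over all times with its 95% interval, n = 16 arrays per age. The intervals of Coq10b and Fmo2 lie above 0 before adjustment, and the dots of Wee1 and Coq10b spread furthest, from -0.40 to 0.30 and from -0.24 to 0.65.

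The last question is whether the rhythm itself differs between the ages. None of the 8 genes passed the test of a different wave, beside 0% of all genes, and none passed the test of an age difference that depends on ZT, beside 0%. At an unadjusted p under 0.05 limma named 1293 of 23279 genes by the first test, 2 of the 8 among them. These were Coq10b (unadjusted p = 0.00787, adjusted p = 0.836) and Wee1 (unadjusted p = 0.0180, adjusted p = 0.852). By the second test limma named 771 of 23279 genes, with Wee1 among them (unadjusted p = 0.0303, adjusted p = 0.9998). Both numbers are near or below what a cut at 0.05 names when no gene differs. So no difference in rhythm was shown for any of the 8, and the intervals give what the arrays could tell.

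The fitted peak of Coq10b was earlier in aged than in young muscle by 2.28 h (shift -2.28 ± 0.664 h, SE; 95% interval -3.63 to -0.92). That of Wee1 was earlier by 1.55 h (-1.55 ± 0.652 h; -2.88 to -0.22). Only these 2 intervals lay on 1 side of 0, and they are not adjusted for the number of genes. Without the 6 arrays rich in liver transcripts the shifts were -1.81 ± 0.788 h for Coq10b and -1.15 ± 0.649 h for Wee1. The shift of Usp2 was -0.97 ± 0.516 h (-2.02 to 0.08) and that of Fmo2 -0.64 ± 0.726 h (-2.12 to 0.85). The shift of Tcap was -1.97 ± 1.11 h (-4.23 to 0.29), and -0.77 ± 1.62 h without the 6 arrays. Lonrf3 alone had a later fitted peak in aged muscle (0.60 ± 1.05 h, and -0.02 ± 1.63 h without the 6 arrays), and the shifts of Tspan4 and Dtx4 had SE of 1.68 and 2.44 h.

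At each time of day the profile of Wee1 crossed between the ages. Both aged arrays lay above both young arrays at ZT 6 and below both at ZT 0, 12, 15 and 21, and the arrays overlapped at the other 3 times. Usp2 was below in aged muscle at ZT 15 and 21 in this sense and overlapped at the other 6. Tcap lay above at ZT 6 and below at ZT 9 and 18. These separations were not tested, and both young arrays of ZT 6 are among those rich in liver transcripts.

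Counted over the 8 genes with all arrays, 7 peaked earlier in aged muscle and 7 had a smaller amplitude there, Lonrf3 being the exception in both. The amplitude count did not hold without the arrays rich in liver transcripts. The aged amplitude was then larger for Usp2, Coq10b, Lonrf3, Tspan4 and Tcap, and smaller for Wee1, Fmo2 and Dtx4. Aged and young amplitudes were 0.44 and 0.42 for Usp2, 0.54 and 0.46 for Coq10b and 0.57 and 0.27 for Lonrf3. They were 0.49 and 0.55 for Wee1, 0.62 and 0.69 for Fmo2 and 0.09 and 0.19 for Dtx4. With all arrays, of the 837 genes rhythmic with ages together 483 peaked earlier and 593 had a smaller amplitude. The median shift was -1.26 h over the 8 genes and -0.31 h over the 837. The median log2 ratio of the amplitudes, aged over young, was -0.07 over the 8, -0.24 over the 837 and -0.20 over all genes. The amplitudes of Usp2, Coq10b and Fmo2 were within 0.022 log2 units of each other in the 2 ages (differences of -0.022 ± 0.061, -0.011 ± 0.096 and -0.013 ± 0.118). None of these counts was tested, since the 8 genes share arrays and were proposed with results known.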

How the data were processed

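RNA of 32 pools of mouse hindlimb muscle was measured on 1 array each. The deposited values are log2 expression levels, made by the authors with the robust multi-array average method (RMA) in R 3.2.2 with affy 1.44.1, per the submitters' processing notes. This method removes background, equalises the arrays by quantiles and joins the probes of a set, which shrinks differences of weak genes. The genome build is not given in the sources used here. Array medians were 5.98 to 6.08. The number of arrays sets the precision, as arrays have no depth.

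Of 24479 probe sets, 23281 had 1 symbol, 0 several and 1198 none in the platform annotation; names were updated through a RefSeq table (GRCm38.p6) that held 23156. Where a symbol had several sets the brightest on average was kept, for 23279 genes, with no filter on level. No 2 arrays were duplicates (smallest root mean square difference 0.236; repeats 0.263 to 0.382).

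Tests used limma 3.58.1 in R 4.3.3 on all 32 arrays with Benjamini-Hochberg adjustment over all genes and a threshold of 0.05. They were a cosine and sine of 24 h for each age or for both, their difference between ages, the age difference with ZT as a factor, and the age difference by ZT over 16 groups. SE of amplitudes and peaks come from the coefficients' SE by linear approximation. The fits were tested on simulated data. The rule named the 8 genes, Arntl and Dbp, the 3 genes of highest r to each, and up to 4 rhythmic genes and the close paralogues of each list. The 8 genes and all lists were chosen with earlier results of these data known. Alternatives were array weights, a second quantile normalisation, a filter on low values, 12 h terms, ZT as a factor, each age alone, a replicate block, left-out arrays and, added after seeing the data, marker means as covariates.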

Additional observations from a re-analysis of the deposited data

How the results depend on the processing

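Of 2368 values of single genes under an alternative, 2296 kept their direction and their side of the threshold, 58 lost a call, 6 gained one, 4 turned sign and 4 moved by more than 1 SE. Amplitudes and sizes of rhythm differences cannot turn sign, and many alternatives left out only 1 array. Much of this agreement was therefore set in advance and is no measure of robustness. When ZT was a factor instead of a curve, 104 genes were rhythmic in young muscle, 32 in aged muscle and 309 with ages together. Each age fitted alone gave 292 and 98. Array weights gave 255 in aged muscle, and leaving out the 6 arrays rich in liver transcripts gave 255 in young. The count of the 8 genes that differ with age was 1 with a filter on low values, 1 with array weights and 1 with the endothelial mean as a covariate (Fmo2 each time), where 2366 genes differed with age. Over all fits that left out an array or a repeat number, 35 to 490 genes were rhythmic in young (3 to 6 of the 8), 8 to 181 in aged (1 to 6 of the 8) and 150 to 917 with ages together, and 1617 to 4431 differed with age; the lowest counts are those with 1 repeat number. Without a single array the number of the 8 that differ with age was 0 to 1, of genes whose rhythm differs 0 to 1, and of genes whose age difference depends on ZT 0 to 11. The age difference of Lonrf3 turned to -0.11 without replicate 1 (adjusted p = 0.631; 0.19 without replicate 2), -0.043 without the 6 arrays (adjusted p = 0.857) and -0.0066 without the young ZT 6 repeat 1 array (adjusted p = 0.975). That of Dtx4 turned to 0.027 without replicate 1 (adjusted p = 0.875; -0.088 without replicate 2). The peak shift of Tspan4 was 2.73 h without replicate 1 and -3.71 h without replicate 2, and that of Tcap was -0.76 h without replicate 1 and -0.77 h without the 6 arrays. At matched ZT the deviations of young and aged arrays of 1 repeat number correlated over 0.1 at 2 of 8 times. This correlation runs over all genes, so it cannot tell whether single genes differ between repeat numbers. With the replicate block 468 genes were rhythmic in young muscle, 164 in aged muscle and 872 with ages together, 4174 differed with age, and no call of the 8 genes changed. The age difference by ZT could not be fitted with 1 repeat number or without the 6 arrays, since groups were left with no spread or no array. The causes were not tested.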

Other observations

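The genes that ran most opposite to the 8, by r over the 32 arrays with the mean of each age taken out, were in part genes of the clock and of glycolysis. Usp2 ran most opposite to Clock, the partner of BMAL1 (r = -0.907). Fmo2 ran most opposite to Pfkfb3, which encodes an enzyme that sets the rate of glycolysis (r = -0.839). For Wee1 it was Slc9a2, which encodes an exchanger of sodium and protons (r = -0.838), and for Coq10b it was Slc16a9, which encodes a membrane carrier (r = -0.804). Tcap ran most opposite to Ice1 (r = -0.802), Lonrf3 to Kif16b, a kinesin of endosomes (r = -0.755), Tspan4 to Hexim1 (r = -0.702) and Dtx4 to Nop14 (r = -0.675). Each is the lowest of 23279 values of r and is a description only.

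In young muscle the repeats of a group lay furthest apart at ZT 3 for Usp2 (0.23), Wee1 (0.53), Coq10b (0.75) and Fmo2 (0.56), and at ZT 6 for Lonrf3 (0.95), Tspan4 (0.48) and Dtx4 (0.23). Repeat 1 of ZT 3 and both repeats of ZT 6 are among the young arrays rich in liver transcripts, and their part in these gaps was not tested. For Tcap the widest young gap was 0.38 at ZT 0, where repeat 1 is also such an array. In aged muscle the widest gaps were at ZT 3 for Usp2 (0.44), ZT 21 for Wee1 (0.31) and ZT 0 for Fmo2 (0.73), with none of these arrays rich in liver transcripts.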
